A study of Mus musculus with 6 samples.

Results

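The genes described here are 10 that rise in acute inflammation, Il1b, Cxcl2, Cxcl1, Tnf, Tnfaip3, Lcn2, Saa3, S100a8, S100a9 and Nos2, followed mouse by mouse in colon mucosa. They are carried by 13 probes of the 45135 on the array, and all 10 were among the 11370 genes tested after a filter on dim probes. The members were picked because levels on these same arrays had shown lower values in Dnmt3a-deleted mice and single control mice with high values, so their levels and group differences are a description and carry no test. The question was whether a lower group mean was shared by the mice or came from 1 control mouse.

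The series compared colon mucosa of 3 control and 3 Dnmt3a-deleted mice, each a separate animal of 5 months on a C57/B6 background, with 1 Illumina bead array per animal. All 6 mice were APC(Min/+), the Min mutation of the Apc tumour suppressor that predisposes to intestinal tumours, and carried floxed alleles of the DNA methyltransferase gene, Dnmt3a(2lox/2lox). The Dnmt3a-deleted mice also carried Fabpl(4x at -132)-Cre(-/+), called Fabp-Cre+ elsewhere in the labels, a recombinase driven by a fatty acid binding protein promoter of intestinal epithelium, and per the series design lost Dnmt3a in 30 to 50% of mucosa cells. The control mice were Cre(-/-). RNA came from whole mucosa, so a lower level can mean fewer cells of a type or less RNA per cell, and the array cannot tell these apart. In the following, a level is a background-corrected, quantile-normalized intensity on the log2 scale, a difference is the Dnmt3a-deleted minus the control mean, and levels are compared between mice within a probe and never between genes.

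Mean raw signal ran from 285 to 379 and detected probes from 19339 to 21358 per array, the lowest of both on Dnmt3a-deleted replicate 3. That array correlated with the others at 0.925 to 0.9496 over the kept probes, against at least 0.978 among the other 5. The epithelial markers Vil1, Cdx1, Cdx2, Krt8, Krt20, Muc2, Epcam, Car1, Slc26a3 and Cldn7 were detected on all 6 arrays. Their mean deviation from the 6-array mean ran from -0.23 on Dnmt3a-deleted replicate 3 to 0.12 on replicate 2.

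In acute inflammation, bacterial products and the cytokines IL-1β and TNF activate the transcription factor NF-κB, which switches on cytokine and chemokine genes and, with a short delay, its own inhibitors. Epithelial cells and resident macrophages release CXCL1 and CXCL2, which draw neutrophils out of the blood. Neutrophils arrive loaded with S100A8 and S100A9, and the epithelium answers with secreted defence proteins such as lipocalin-2 and serum amyloid A.

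The promoters of 4 members are shown because these genes fell into different patterns over the mice while some share a sequence. RefSeq promoter windows of assembly GRCm38.p6, the 250 bases before the start site, were matched for 9 of the 10 genes, all but Nos2. They were searched on both strands for the 10-letter NF-κB consensus. That consensus occurred in 7.25% of 32851 promoter windows of the same length and in those of 3 members, Cxcl1, Cxcl2 and Tnfaip3. The windows below are 5′ to 3′ on the gene's strand, with consensus matches in capitals, and the Tnf window, which holds none, is printed because the levels of Tnf went with those of Cxcl1 and Tnfaip3.
Cxcl1, chr5:90890995-90891244, plus strand: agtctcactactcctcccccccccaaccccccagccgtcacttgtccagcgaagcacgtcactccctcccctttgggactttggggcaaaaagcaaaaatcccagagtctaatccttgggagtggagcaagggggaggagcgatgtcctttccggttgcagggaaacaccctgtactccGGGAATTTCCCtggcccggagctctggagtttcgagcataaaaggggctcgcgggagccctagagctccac
Cxcl2, chr5:90903649-90903898, plus strand: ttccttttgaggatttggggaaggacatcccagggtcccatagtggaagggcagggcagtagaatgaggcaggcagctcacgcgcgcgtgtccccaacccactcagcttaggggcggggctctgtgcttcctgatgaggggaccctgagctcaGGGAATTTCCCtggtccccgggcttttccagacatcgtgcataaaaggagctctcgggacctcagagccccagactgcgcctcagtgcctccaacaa
Tnfaip3, chr10:19015411-19015660, minus strand: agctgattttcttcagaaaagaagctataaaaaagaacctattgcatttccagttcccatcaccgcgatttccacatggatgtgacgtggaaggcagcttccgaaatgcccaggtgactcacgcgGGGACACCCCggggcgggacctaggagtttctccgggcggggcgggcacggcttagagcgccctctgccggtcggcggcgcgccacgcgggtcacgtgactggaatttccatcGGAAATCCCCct
Tnf, chr17:35202008-35202257, minus strand: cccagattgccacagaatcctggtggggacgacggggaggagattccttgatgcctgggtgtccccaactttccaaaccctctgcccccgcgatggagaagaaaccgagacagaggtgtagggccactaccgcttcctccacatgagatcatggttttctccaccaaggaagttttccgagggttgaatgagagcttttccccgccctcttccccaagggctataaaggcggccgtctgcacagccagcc
Cxcl1 and Cxcl2, which lie close together on chromosome 5, both hold the match GGGAATTTCC, overlapped by its counterpart on the other strand. It starts 71 bases before the start site of Cxcl1 and 97 bases before that of Cxcl2. In the Tnfaip3 window 1 match, GGGACACCCC, starts 125 bases before the start site and another, GGAAATCCCC, starts 12 bases before it. The second Tnfaip3 start site in RefSeq and the Tnf, Il1b, Lcn2, Saa3, S100a8 and S100a9 windows held no match to these letters. The AP-1 letters TGANTCA occurred in the Tnfaip3 window and in 6.75% of all windows, and the C/EBP letters TTGCNNAA in those of Lcn2, Saa3 and S100a9 and in 9.56% of all windows. The TATA box letters TATAAA, present in 12.4% of all windows, began 31, 29 and 30 bases before the start sites of Il1b, Tnf and S100a8 and 225 bases before that of Tnfaip3. A match of letters is a description of the sequence and does not show binding.

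Over all 10 genes, 9 had a lower mean in Dnmt3a-deleted mucosa, where 41.6% of all genes tested had one, and 8 were at least 2-fold lower, against 0.994% of all genes. The median difference of the members was -1.43, beside 0.055 over all genes. Since lower means in these mice were what chose the members, nothing is read from those shares. The highest of the 6 arrays was a control array for 9 members, against 38.2% of all genes, but it was not the same control mouse. It was replicate 3 for Il1b, Cxcl1, Tnf and Tnfaip3, replicate 2 for Cxcl2, Lcn2, S100a8 and S100a9, and replicate 1 for Saa3. Nos2 was highest on Dnmt3a-deleted replicate 1.

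**Figure D1:**
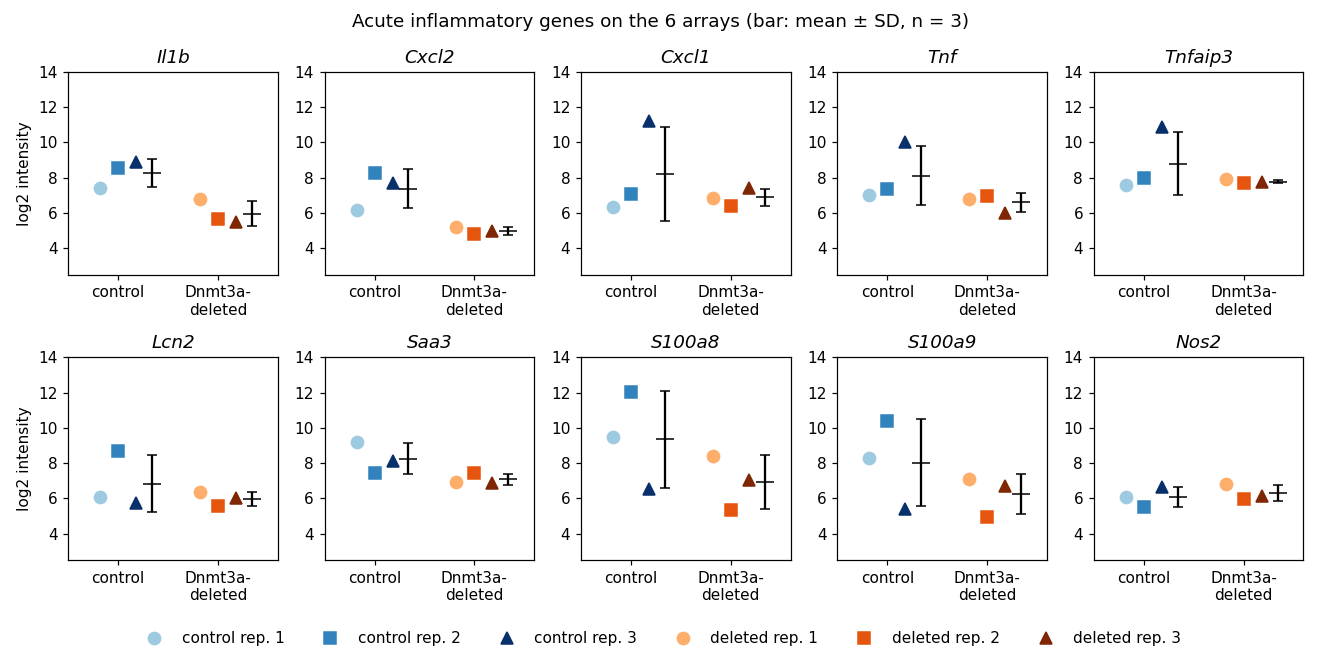
Log2 intensity (y axis) of the 10 genes on the 6 arrays, 1 panel per gene with control mice on the left and Dnmt3a-deleted mice on the right, and bars for the mean and SD of 3 mice. A single control mouse stands far above the rest for Cxcl1 (11.24), Tnf (10.03) and Tnfaip3 (10.85), and another for Lcn2 (8.69), S100a8 (12.05) and S100a9 (10.36).

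Il1b, the gene of the cytokine IL-1β, which activates endothelium and epithelium through the IL-1 receptor, stood at 7.39, 8.56 and 8.91 in control replicates 1 to 3 and at 6.76, 5.65 and 5.47 in Dnmt3a-deleted replicates 1 to 3. Every control mouse lay above every Dnmt3a-deleted mouse, with 0.63 between the lowest control and the highest deleted value. The difference was -2.32 ± 0.46 (SE), from 8.29 ± 0.80 to 5.96 ± 0.70 (SD, n = 3). Its size depends on the background step, and without background correction it was -1.61. Raw intensity was 112 and 94 in Dnmt3a-deleted replicates 2 and 3, beside background levels of 90.1 and 84.9 on those arrays. Leaving out each mouse in turn gave differences from -2.77 to -2.01, so the lower mean did not rest on 1 mouse.

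Cxcl2, a neutrophil chemokine, was read by 2 probes. On the brighter one it stood at 6.15, 8.28 and 7.68 in control and at 5.21, 4.77 and 4.97 in Dnmt3a-deleted replicates 1 to 3, detected in all 3 control mice and, of the deleted mice, in replicate 1. The groups were 0.94 apart at their nearest, between control replicate 1 and Dnmt3a-deleted replicate 1, both detected. The measured difference was -2.39 ± 0.49 (SE), or -2.999 to -1.93 with each mouse left out, and -1.37 without background correction. As 2 of the 3 deleted mice were not above background, its size is read as a bound, and with those mice set to their arrays' lowest detected level it was at least 4.67-fold lower. The dimmer probe, below the filter, gave 5.14, 7.38 and 7.21 against 4.96, 4.73 and 4.85, with detection in control replicates 2 and 3 and in 0 of the deleted mice. As that probe was not well above background in any deleted mouse, it gives only a bound, at least 2.76-fold lower. Both probes placed control replicate 1 nearest to the deleted mice.

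Cxcl1, whose product acts on the same neutrophil receptor as that of Cxcl2, behaved otherwise. Its levels were 6.31, 7.06 and 11.24 in control against 6.84, 6.39 and 7.39 in Dnmt3a-deleted replicates 1 to 3. Raw intensity shows the same single mouse, at 2720 in control replicate 3 and between 140 and 197 on the other 5 arrays. The mean difference of -1.33 ± 1.13 (SE) became 0.18 without control replicate 3, and the group medians of 7.06 and 6.84 lay close together. The lower mean of Cxcl1 therefore came from 1 control mouse.

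Tnf, the gene of tumour necrosis factor, was read by 2 probes that put the mice in the same order. The brighter one gave 6.99, 7.33 and 10.03 in control against 6.81, 6.97 and 5.99 in Dnmt3a-deleted replicates 1 to 3. The other gave 6.74, 6.77 and 9.50 against 6.31, 6.50 and 5.75. Control replicate 3 stood 2.70 and 2.73 above the next mouse on these probes. The difference of the brighter probe, -1.53 ± 0.74 (SE), became -0.57 without that mouse, and its groups were only 0.02 apart. With median scaling between arrays they overlapped.

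Tnfaip3, which encodes the NF-κB inhibitor A20 and is itself an NF-κB target, stood at 7.57, 7.96 and 10.85 in control and at 7.90, 7.71 and 7.72 in Dnmt3a-deleted replicates 1 to 3. Apart from control replicate 3, the 5 mice lay within a narrow band and the groups overlapped. The difference of -1.02 ± 0.76 (SE) became 0.01 without control replicate 3. The SD was 1.79 among the control and 0.10 among the deleted mice.

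S100a8 and S100a9 encode the calcium-binding pair that makes up calprotectin, an abundant protein of neutrophils. S100a8 stood at 9.47, 12.05 and 6.54 in control and at 8.40, 5.35 and 7.02 in Dnmt3a-deleted replicates 1 to 3. S100a9 stood at 8.31, 10.36 and 5.42 against 7.10, 4.94 and 6.70, and was not detected in Dnmt3a-deleted replicate 2. Both genes put the 6 mice in the same order, with control replicates 2 and 1 and Dnmt3a-deleted replicate 1 on top and Dnmt3a-deleted replicate 2 at the bottom. Control replicate 3, the mouse highest in Cxcl1, Tnf and Tnfaip3, was next to the lowest for both. Differences were -2.43 ± 1.31 and -1.78 ± 1.14 (SE) with overlapping groups. They ran from -3.83 to -1.08 and from -3.08 to -0.61 with each mouse left out, nearest to 0 without control replicate 2 and farthest from it without control replicate 3.

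Lcn2, which encodes lipocalin-2, a neutrophil granule and epithelial protein that binds bacterial siderophores, stood at 6.08, 8.69 and 5.71 in control and at 6.36, 5.58 and 5.99 in Dnmt3a-deleted replicates 1 to 3. Control replicate 2 was 2.33 above the next mouse, a deleted one. The difference of -0.85 ± 0.71 (SE) became 0.08 without it. As with Cxcl1 and Tnfaip3, the lower mean came from 1 control mouse, here another one.

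Saa3, an acute phase serum amyloid A gene, stood at 9.18, 7.46 and 8.10 in control and at 6.94, 7.45 and 6.87 in Dnmt3a-deleted replicates 1 to 3. Control replicate 1 was highest by 1.08. The difference was -1.16 ± 0.41 (SE) and ran from -1.55 to -0.69 with each mouse left out, nearest to 0 without control replicate 1. Although the groups did not overlap, they were only 0.01 apart, between control replicate 2 and Dnmt3a-deleted replicate 2, and overlapped with median scaling.

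Nos2 encodes the inducible nitric oxide synthase. It stood at 6.06, 5.51 and 6.66 in control and at 6.80, 5.95 and 6.12 in Dnmt3a-deleted replicates 1 to 3 on its detected probe, and its second probe was detected on 0 arrays. The groups overlapped and the difference was 0.21 ± 0.33 (SE). It turned to -0.07 without control replicate 2 and to -0.04 without Dnmt3a-deleted replicate 1. Nos2 was the 1 member without a lower mean.

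**Figure D2:**
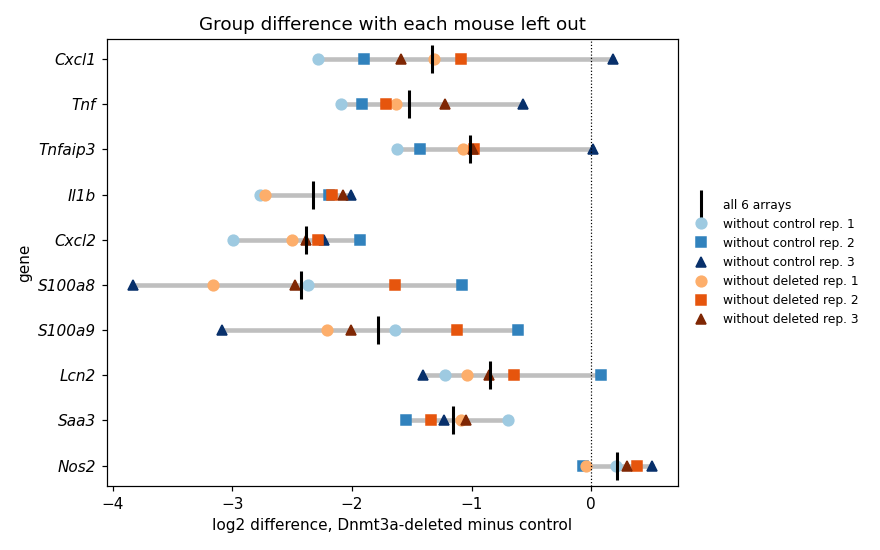
Log2 difference, Dnmt3a-deleted minus control (x axis), of each gene over all 6 arrays (black bar) and with each mouse left out (symbols). Without control replicate 3 Cxcl1 and Tnfaip3 lie at 0.18 and 0.01, without control replicate 2 Lcn2 lies at 0.08, and Il1b and Cxcl2 stay at or below -1.93.

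Groups did not overlap for 4 members, Il1b, Cxcl2, Tnf and Saa3, where 5.3% of all genes had lower, non-overlapping Dnmt3a-deleted values and 9.22% had higher ones, and the choice of members leaves nothing to read from that share. On the brightest probe of each gene the gap between the groups was at least 0.63 for Il1b and Cxcl2 and at most 0.02 for Tnf and Saa3. The other kept Tnf probe put the groups 0.24 apart. Of the 9 members with a lower mean, 3 turned sign when 1 control mouse was left out, beside 1285 of the 4735 genes with a lower mean over the whole array. Among genes at least 2-fold lower the turn was made by 2 of 8 members, Cxcl1 and Tnfaip3, and by 3 of all 113 genes, those 2 included. The choice of members leaves nothing to read from these shares either. Group medians differed by -2.91 for Il1b, -2.45 for S100a8, -1.61 for S100a9 and -1.16 for Saa3, and for Cxcl2 by -2.54 with undetected mice at the lowest detected level. They differed by -0.52 for Tnf, -0.24 for Tnfaip3, -0.22 for Cxcl1, -0.08 for Lcn2 and 0.06 for Nos2.

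The spread of these genes lay mostly among the control mice. By SD among control mice, S100a8 ranked 3, Cxcl1 6, S100a9 7, Tnfaip3 15, Tnf 19, Lcn2 21 and Cxcl2 66 of 11370 genes. Among the 100 genes of widest SD there were thus 7 members in the control and 1, S100a8, in the Dnmt3a-deleted mice. High values in single control mice were part of what chose the members, so nothing is read from these ranks and counts. Over all genes the median SD was the other way round, at 0.18 in control and 0.27 in Dnmt3a-deleted mice, which hold the array that stands apart.

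**Figure D3:**
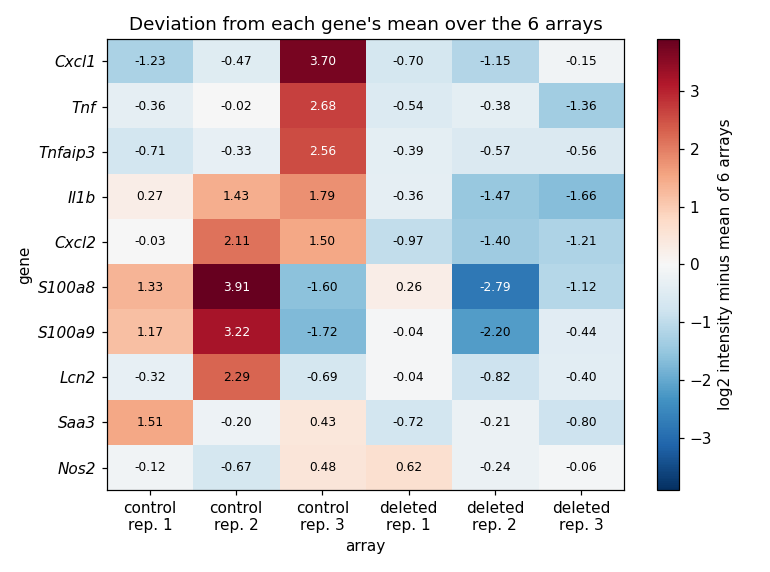
Log2 intensity minus the gene's mean over the 6 arrays (colour and printed value), with genes in rows and arrays in columns. Control replicate 3 carries the high values of Cxcl1 (3.70), Tnf (2.68) and Tnfaip3 (2.56), control replicate 2 those of S100a8 (3.91), S100a9 (3.22) and Lcn2 (2.29), and Il1b and Cxcl2 are high in both.

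Correlations over the 6 arrays, given as a description of points that include single extreme mice, sorted the genes in the same way. S100a8 and S100a9 were at 0.988, and Lcn2 was at 0.894 and 0.887 with them. Cxcl1 and Tnfaip3 were at 0.983, Tnf and Tnfaip3 at 0.951 and Cxcl1 and Tnf at 0.885. Il1b and Cxcl2 were at 0.945 with each other. Il1b was at 0.769 with Tnf and 0.52 with S100a8, and Cxcl2 at 0.649 and 0.607. Cxcl1 and Cxcl2, with the same NF-κB letters, were at 0.511, and Cxcl1 and S100a9 at -0.364.

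Few genes stood out on a single array as these did. At least 2 above every other array on the log2 scale stood 11 genes on control replicate 3 (0.0967% of genes), 5 on control replicate 2 (0.044%) and 2 on control replicate 1 (0.0176%). The same counts were 0, 1 (0.0088%) and 11 on Dnmt3a-deleted replicates 1 to 3. Members made up 3 of the 11 genes on control replicate 3, Cxcl1, Tnfaip3 and Tnf, and 3 of the 5 on control replicate 2, S100a8, Lcn2 and S100a9. On each of the other 4 arrays 0 members stood out in this way. These shares describe the members only, since single high control mice were part of what chose them.

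Of the other 8 genes of control replicate 3, the 7 of widest gap above the next mouse were Acta1 at 3.03, Depp1 at 2.73, Ccn1, a matrix protein of the immediate early response, at 2.62, Rnd3 at 2.49, Pmaip1, a p53 target that promotes apoptosis, at 2.47, the vasodilator peptide gene Adm at 2.46 and the phosphatase gene Dusp5 at 2.27. The genes most like Cxcl1 over the 6 arrays were the RNA-destabilizing factors Zfp36l1 (Pearson r of 0.987) and Zfp36 (0.981), Nfkbid (0.981), a member of the IκB family, Zfand2a (0.980) and Phlda1 (0.979). Those most like Tnfaip3 were Phlda1 (0.992), Chac1 (0.985), Tuft1 (0.983), Cstf3 (0.980) and the endoplasmic reticulum chaperone gene Hspa5 (0.978). Thbs1 (0.985), Pmaip1 (0.983), Rnf34 (0.982), Vamp7 (0.981) and Cldn4 (0.981) were nearest to Tnf. Zfp36 itself stood at 12.15, 12.52 and 13.59 in control and at 12.27, 12.20 and 12.70 in Dnmt3a-deleted replicates 1 to 3, again with control replicate 3 on top.

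On control replicate 2 the genes with the widest gap, beside the 3 members, were Fxyd4, a regulator of the sodium pump, at 3.34 and Retnlg, a resistin-like gene of neutrophils, at 3.02. Retnlg stood at 7.04, 10.06 and 4.58 in control and at 6.06, 4.78 and 5.04 in Dnmt3a-deleted replicates 1 to 3, and was the gene most like S100a8 (0.965) and S100a9 (0.961). Cyp4v3 (0.956 and 0.929), the gelatinase gene Mmp9 (0.953 and 0.947) and Chil1 (0.952 and 0.952) were also near to both. Nearest to Lcn2 were Asprv1 (0.994), Cd59a (0.985), Cited4 (0.984), Aldh1a3 (0.982) and Chil4 (0.973).

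For Il1b and Cxcl2, lower in every deleted mouse, the nearest patterns included those of leukocyte genes. Il1b was most like Fcer1g, the shared chain of Fc receptors (0.959), Srgn, a granule proteoglycan (0.957), Sla (0.948), Tyrobp, a signalling adaptor of NK and myeloid cells (0.937) and the lysozyme gene Lyz2 (0.929). Cxcl2 was most like Selplg, the selectin ligand of leukocytes (0.955), Fcer1g (0.950), Sash3 (0.931), Samsn1 (0.927) and Ccn2 (0.914). Fcer1g stood at 7.56, 7.98 and 8.28 in control and at 6.79, 6.68 and 6.74 in Dnmt3a-deleted replicates 1 to 3. Saa3 was nearest to Ak4 (0.990), Epdr1 (0.955) and Mpp6 (0.953), and Nos2 to Calhm6 (0.983) and Slc5a9 (0.927). These genes were picked for their likeness from all genes with a range of at least 1, so the correlations describe them and test nothing. Tyrobp and Epdr1 were detected in 0 of the deleted mice and kept through the control mice alone.

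The wider pathway was read in lists that leave the members out. These lists and the cell type marker lists were chosen with earlier results of these data known. Nothing is therefore read from their shares beside those of all genes. Over all genes 1 gene rose at an adjusted p under 0.05 by limma (0.0088%) and 0 fell (0%), with 352 higher (3.1%) and 245 lower (2.15%) at an unadjusted p under 0.05. Of the genes in the pathway lists 0 passed in either direction by limma, so the values below are given without a verb of change. The adjusted p of each gene named from these lists was at least 0.700.

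Among inflammatory chemokines and their receptors 8 of 18 genes were measured, with a median difference of -0.66, 6 below 0 and 2 at an unadjusted p under 0.05. The macrophage chemokine Ccl3 stood at 5.88, 6.41 and 6.63 in control and at 5.14, 5.70 and 4.89 in Dnmt3a-deleted replicates 1 to 3, a difference of -1.06 ± 0.27 (SE), with 2 of the 3 deleted mice not above background. Ccl4 was at 8.55, 8.97 and 10.27 against 7.13, 8.50 and 7.86, a difference of -1.43 ± 0.49. Groups did not overlap for either gene, where 5.3% of all genes had lower, non-overlapping values. The receptor gene Ccr6 was detected in the 3 control mice and in 0 deleted mice, passed the filter through the control mice alone, and gives only a bound, at least 1.23-fold lower. Control replicate 3 was the highest array for 5 of the 8 genes, against 14.5% of all genes. Of the cytokines and receptors around IL-1 and TNF 9 of 22 were measured, with a median of -0.18 and 1 at an unadjusted p under 0.05. The lymphotoxin gene Ltb differed by -0.57 ± 0.16 with non-overlapping groups, Osm by -0.88 ± 0.46 and Ifng by -0.38 ± 0.20. Osm was highest in control replicate 2, at 7.38, and at most 5.83 elsewhere. Il6, Il22 and Csf2 were detected on 0 arrays, and Il1a and Il17a on 1.

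Toll-like receptor and NF-κB signalling genes, 17 of 22 measured, had a median of -0.10 with 0 at an unadjusted p under 0.05 by limma. The receptor gene Tlr2 differed by -0.80 ± 0.36, the ubiquitin ligase gene Traf6 by 0.37 ± 0.19 and Ly96, the partner of TLR4, by 0.38 ± 0.26. The list of inhibitor and feedback genes around NF-κB, 13 of 16 measured, had a median of -0.08, also with 0 at an unadjusted p under 0.05 by limma. Nfkbib differed by -0.42 ± 0.21, Bcl3 by 0.26 ± 0.18 and Rcan1 by 0.34 ± 0.25. Control replicate 3 was the highest array for 6 of these 13, against 14.5% of all genes. Of the prostaglandin and adhesion genes 6 of 15 were measured, with a median of -0.25 and 1 at an unadjusted p under 0.05. The prostaglandin synthase gene Ptges differed by 0.45 ± 0.16, the adhesion molecule gene Icam1 by -0.51 ± 0.29 and Thbs1 by -0.85 ± 0.55. For 5 of the 6 the highest array was control replicate 3, against 14.5% of all genes. Ptgs2 was detected on 0 arrays.

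The epithelial defence and acute phase genes, 22 of 25 measured, had a median of 0.02 and 3 at an unadjusted p under 0.05. Hp, the acute phase gene of haptoglobin, is among those 3. It was detected in the 3 control mice, at 5.51, 6.46 and 5.43, and in 0 deleted mice. It passed the filter through the control mice alone and gives only a bound, at least 1.61-fold lower in mean. That mean includes the higher control replicate 2, and with undetected mice at the lowest detected level the medians differed by -0.41. Ass1, which acts in making the arginine that nitric oxide synthases use, differed by 0.82 ± 0.30, and Arg2, an arginase that breaks arginine down, by -1.19 ± 0.51. Groups did not overlap for Ass1 and overlapped for Arg2.

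Control replicate 3 also stood out in genes of the immediate early response, which are switched on within minutes of a stimulus. Its mean over 22 of 26 such genes was 0.81 above the 6-array mean, with the other arrays between -0.35 and 0.11. It was the highest array for 13 of the 22, against 14.5% of all genes. The 22 include Ccn1 and Dusp5, already named above for their gaps on this array. Atf3 stood at 11.07, 10.30 and 12.94 in control and at 10.50, 10.88 and 11.23 in Dnmt3a-deleted replicates 1 to 3, and is named here for its values, not by the rule that chose the other genes. The list's median difference was -0.28, with 2 genes at an unadjusted p under 0.05, Dusp2 at -0.64 ± 0.26 and Dusp6 at 0.60 ± 0.26, and Egr2 at -1.19 ± 0.52. Heat shock genes were measured for 11 of 11, with a median of -0.15 and 0 at an unadjusted p under 0.05 by limma. Bag3 differed by 0.29 ± 0.18, Hspa1b by -1.11 ± 0.75 and Dnaja1 by -0.24 ± 0.17. Their list mean was 0.66 on control replicate 3 and 0.66 on Dnmt3a-deleted replicate 3. On that deleted array Cxcl1 was second only to control replicate 3, at 7.39, Tnf was lowest of the 6, at 5.99, and Tnfaip3 was at 7.72. The part of either list in the high values of Cxcl1, Tnf and Tnfaip3 was not tested.

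**Figure D4:**
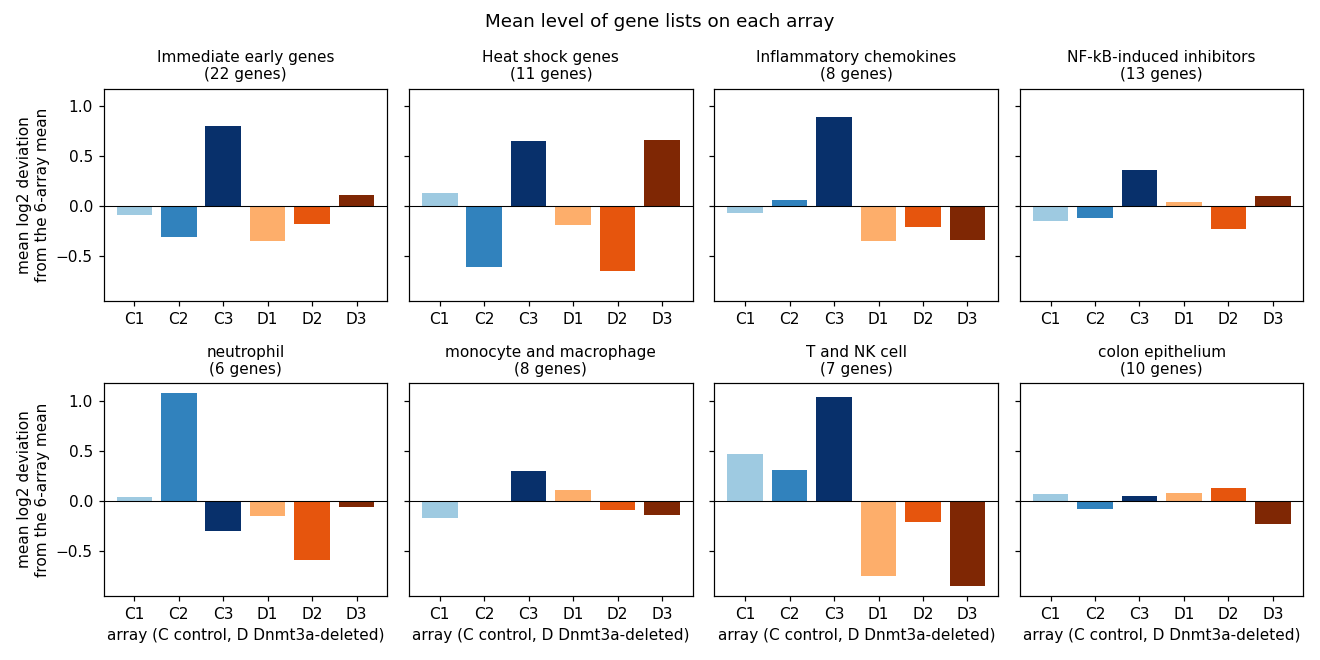
Mean deviation of each gene list from its 6-array mean (y axis, log2) on control (C1 to C3) and Dnmt3a-deleted (D1 to D3) arrays, with the number of measured genes in each title. Control replicate 3 is highest in immediate early (0.81) and chemokine genes (0.89), control replicate 2 in neutrophil markers (1.08), and T and NK cell markers are lower on all 3 deleted arrays.

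Neutrophil markers had their highest mean in control replicate 2, though not for each gene. Of 15 markers 13 were on the array and 6 were kept, Csf3r, Ltf, Retnlg, Mmp9, Cxcr4 and Fpr2. Their mean deviation was 0.03, 1.08 and -0.31 in control against -0.15, -0.60 and -0.06 in Dnmt3a-deleted replicates 1 to 3. Their log2 summed level was 8.64, 10.52 and 8.22 against 8.43, 7.95 and 8.91, and control replicate 2 was highest for 4 of the 6. The granule genes Mpo, Camp and Mmp8 were detected on 0 arrays, and Elane and Ngp on 2. Retnlg gave much of that mean, and without it, a choice made after seeing the values, control replicate 2 stood at 0.54 and the other arrays between -0.42 and 0.17. The log2 summed level without it was highest on Dnmt3a-deleted replicate 3, at 8.81 against 8.67 on control replicate 2. Ltf, the lactoferrin gene, was highest on Dnmt3a-deleted replicate 3, at 8.15, and Cxcr4, a chemokine receptor gene, on control replicate 3, at 5.90. Fpr2, a receptor for bacterial peptides on phagocytes, stood at 5.33, 6.94 and 5.31 against 5.15, 4.12 and 5.09. It was detected in 0 of the deleted mice and kept through the control mice alone. In control replicate 3, where Cxcl1 was highest, the marker mean lay below the 6-array mean. The part of neutrophil RNA in the levels of S100a8, S100a9 and Lcn2 was not tested.

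Monocyte and macrophage markers, 8 of 13 measured, had 4 differences above and 4 below 0 and log2 summed levels of 10.35, 10.57 and 10.71 in control against 10.91, 10.34 and 10.09 in Dnmt3a-deleted replicates 1 to 3. The bright Cd14 carries most of that sum, and without it the levels were 8.20, 8.35 and 8.74 against 8.40, 8.28 and 8.27. Groups overlapped for both sums. Lyz2, which was among the genes most like Il1b, differed by -0.80 ± 0.30 at an unadjusted p of 0.028 and an adjusted p of 0.700 by limma. The part of macrophage RNA in the lower Il1b and Cxcl2 was not tested. T and NK cell markers, 7 of 11 measured, did separate the groups, with log2 summed levels of 11.42, 11.23 and 12.37 against 9.85, 10.84 and 9.60. The bright chemokine gene Ccl5 weighs heavily in these sums. With each gene counted alike, the mean deviation was 0.47, 0.31 and 1.04 in control against -0.75, -0.21 and -0.86. Of these 7 genes 0 passed at an adjusted p under 0.05 by limma, 7 were lower at an unadjusted p under 0.05, against 2.15% of all genes, and 6 had lower, non-overlapping groups, against 5.3%. Of the 6, Cd2 was detected in 0 deleted mice and kept through the control mice alone. As the list was chosen with earlier results of these data known, nothing is read from its shares. Prf1, a cytotoxic lymphocyte gene outside the list, lay the other way, and is named for its values, not by the rule that chose the other genes. It stood at 7.49, 6.57 and 7.14 in control against 7.65, 7.78 and 11.23 in Dnmt3a-deleted replicates 1 to 3. Its highest value was on Dnmt3a-deleted replicate 3, the array of lowest signal, where it had the widest gap of all genes, 3.45. The part of T and NK cell RNA in the lower Il1b and Cxcl2 was not tested. B and plasma cell markers had log2 summed levels of 7.84, 7.48 and 7.86 against 7.26, 7.71 and 7.37, and mast cell, dendritic cell and fibroblast markers were kept for 2, 2 and 1 genes. Endothelial markers were kept for 0 of 5 genes. Smooth muscle markers were kept for 3 of 6, at log2 summed levels of 6.80, 6.99 and 7.33 against 7.16, 7.11 and 8.04.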

How the data were processed

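Total RNA of 6 mouse colon mucosa samples, 3 per group, was labelled with biotin and hybridised to Illumina bead arrays, per the labels' protocols. The authors deposited a table of mean signal intensity per probe, not normalized, with a deposited detection p-value beside each, and a table of processed intensities whose normalization is not given in the sources used here. These deposited values were linear, with background left in and column medians from 92.9 to 94.8. The detection p-value was 2-sided, small also for 6320 to 7410 probes per array below background, so the 1-sided neqc was not used. From the unprocessed intensities, limma 3.58.1 in R 4.3.3 applied normexp (saddle-point, offset 16), quantile normalization and log2.

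A probe was detected at p under 0.05 and a signal above background, taken as the median over the array's probes of p above 0.97. Those detected on at least 3 arrays were kept, 21183 of 45135, and a gene was its brightest kept probe. Of all probes 34773 had 1 gene symbol, 18 several and 10344 none here, and symbols were updated by gene number through RefSeq (GRCm38.p6). The number of arrays limits the precision.

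Groups were compared with lmFit and eBayes, 2-sided, adjusted by Benjamini-Hochberg over 11370 genes, with no covariate. The fit was tested on simulated data. The members and lists were chosen with earlier results of these data known. Genes named were the members, those called and the 3 of smallest p in each list, the 5 most like each member and the widest gaps on control replicates 3 and 2, clone names passed over. Neither slide nor scan date was used.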

Additional observations from a re-analysis of the deposited data

How the results depend on the processing

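The 9 members with a lower mean were 7 to 10 with each mouse left out and 7 of 8 tested when detection on all 6 arrays was asked, which removed Cxcl2 and S100a9. Same-numbered mice of the 2 groups are different animals. They deviated from their group means with correlations of -0.124, -0.11 and 0.0378, beside -0.0726 to 0.196 for mice of different number. Such values over all genes cannot exclude a pairing that touches few genes, and the labels give none. With the replicate number as a block, 1 gene was called, the same number as without it. The count of 9 could not change there, since each block held 1 mouse of each group and left every mean difference as it was. Over the mice left out, Cxcl1 ran from -2.28 to 0.18 and Tnfaip3 from -1.63 to 0.012, the highest without control replicate 3, Lcn2 from -1.41 to 0.084, the highest without control replicate 2, and Nos2 from -0.069 without control replicate 2 to 0.505 without control replicate 3, with -0.042 without Dnmt3a-deleted replicate 1. Il1b was at -1.61 both without background correction and with the authors' processed values. Cxcl2 was at -1.37 without background correction, -1.36 with the authors' processed values and -1.64 with a normexp offset of 50. As for Il1b, the size of its difference depends on the background step. Members with non-overlapping lower groups numbered 2 with median scaling and 4 to 6 with each mouse left out. Leaving out a mouse can only keep or widen the gap between groups, so that count could not fall below 4. Members standing at least 2 above every other array on control replicate 3 numbered 3 under each alternative that kept all arrays, of 8 to 14 such genes in all. The 1 gene called higher was 0 without control replicate 2, and 0 to 1 over the mice left out. Genes called lower and pathway genes called were 0 under each alternative. Signal near background limits Cxcl2, S100a9 and the second Nos2 probe, and the size of the Il1b difference.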
